A study of Saccharomyces cerevisiae with 16 samples.

Results

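The 37 genes described here encode nuclear-encoded proteins of yeast oxidative phosphorylation. They were chosen by gene name from the 6679 genes of the deposited table, and all 37 were found. They comprise NDI1, 4 subunits of complex II, 9 of complex III, 2 cytochromes c, 9 subunits of complex IV and 12 of the ATP synthase. No measured value entered their choice, although it was made with earlier results of these data known. All 37 passed the filter on low values in both kinds of library.

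Oxidative phosphorylation passes electrons from NADH and succinate through complexes of the mitochondrial inner membrane to oxygen, and uses the resulting proton gradient to make ATP. Budding yeast has no proton-pumping complex I. NDI1, an enzyme of a single polypeptide, takes its place. Most subunits are made on cytosolic ribosomes and imported, while a few core subunits of complexes III and IV and of the ATP synthase are encoded in mitochondrial DNA. Sporulation is induced on a non-fermentable carbon source, so diploid cells depend on respiration to enter and complete meiosis.

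Cells of the SK1 background, which sporulates fast and synchronously, were collected 6 h or 3 h after transfer to sporulation medium. They carried either a deletion of the DBP1 open reading frame, made with Cas9 and without a marker, or an intact DBP1 (WT). DBP1 encodes a DEAD-box RNA helicase related to the initiation helicase DED1. The groups used here were the deletion at 6 h, WT at 6 h, the deletion at 3 h and WT at 3 h, each with 2 libraries of ribosome footprints and 2 of mRNA, 16 libraries in all. All cells were pretreated with cycloheximide at 100 µM for 1 min. Footprint libraries, made from 28 to 31 nt fragments that ribosomes had covered, held 4578410 to 6965130 reads in the genes of the table. The mRNA libraries, made from 50 nt fragments, held 5644990 to 9144994 such reads. Shares of reads given below are shares of these totals. Deletion replicates were numbered 2 and 4 and WT replicates 3 and 4. The labels state neither that a replicate is a culture of its own nor how many clones stand for the deletion strain. Each p-value therefore reflects the spread between libraries alone, and that spread may be technical.

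Levels are in RPKM, reads normalised to a gene length and to a read total of the library, so they can be compared between genes per length. The values correspond to the total of reads in genes and to a length shorter than the gene span, which matters most for the shortest genes. They are shares of a library: a fall means a smaller share of the reads, and in these bulk samples fewer cells of a type and less RNA per cell cannot be told apart. DBP1 had 0.449 to 1.12 RPKM of footprints in the 4 deletion libraries, against 147 to 429 RPKM in the 4 WT libraries, and 0.409 to 1.25 RPKM of mRNA, against 32.3 to 161 RPKM. The 20 middle meiotic markers summed to 53004 to 55484 RPKM of footprints in WT at 6 h, against 1035 to 1081 RPKM in WT at 3 h, and none was at 0 in either group. In the deletion their sums were 54686 to 63984 RPKM at 6 h, against 1175 to 1275 RPKM at 3 h. The 15 early meiotic markers summed to 5466 to 5805 RPKM at 6 h, against 16514 to 16841 RPKM at 3 h. Markers of dividing cells summed to 74.5 to 80.5 RPKM over 8 genes at 6 h, against 92.5 to 111 RPKM at 3 h. The 14 markers of haploid cells summed to 1842 to 1907 RPKM at 6 h, against 151 to 160.2 RPKM at 3 h. STE18 alone held 1652 and 1713 RPKM of that sum at 6 h, and MF(ALPHA)2 was at 0 in both WT footprint libraries at 6 h. These markers moved with the time comparisons that follow, and their part in them was not tested.

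One mRNA library went against its label. The library labelled deletion 3 h replicate 2 lay at 0.912 on an axis running from WT at 3 h (0) to WT at 6 h (1), computed over 5253 genes without the 37. The other mRNA library labelled deletion 3 h lay at 0.0613. The 37 genes showed the same profile: 36 of them were nearer to the deletion at 6 h than to WT at 3 h, with a median log2 difference of 0.04 from the deletion at 6 h and of -2.34 from WT at 3 h. This library was left out of every fit on mRNA or translation efficiency, so the deletion at 3 h had 1 mRNA library there. Its values are given apart.

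In WT, the genes of oxidative phosphorylation took up a much smaller share of the cell's footprints and mRNA at 6 h than at 3 h. Together the 37 genes held 0.718 and 0.655% of footprint reads at 6 h, against 3.22 and 2.59% at 3 h. For mRNA the shares were 0.425 and 0.467% at 6 h, against 2.02 and 2.48% at 3 h. In footprints 35 of the 37 genes fell and none rose (limma on log2(RPKM + 1), Benjamini-Hochberg adjusted p under 0.05 over all genes tested). Among all 5312 genes tested, 63.3% fell and 20.1% rose. The median change of the 37 was -2.05 on the log2 scale, against -0.96 for all genes tested, and 33 of the 37 lay below that all-gene median. In mRNA 35 fell and 1 rose, against 72.8% and 16.5% of the 5712 genes tested, with a median of -2.31, against -1.37 for all genes.

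Those all-gene medians are shifts of the whole table, so changes can also be read relative to them. After rescaling of each library by its median ratio, 27 of the 37 genes were lower and 1 higher in footprints, where 32.3% of all genes tested were lower and 36% higher. In mRNA 25 were lower and 4 higher, where 35.8% of all genes tested were lower and 38.2% higher. Footprint groups did not overlap library by library for 36 of the 37 genes, COX5B being the exception, where 94.4% of all genes tested did not overlap. In mRNA the exception was CYC7, and 95.9% of all genes tested did not overlap.

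**Figure D1:**
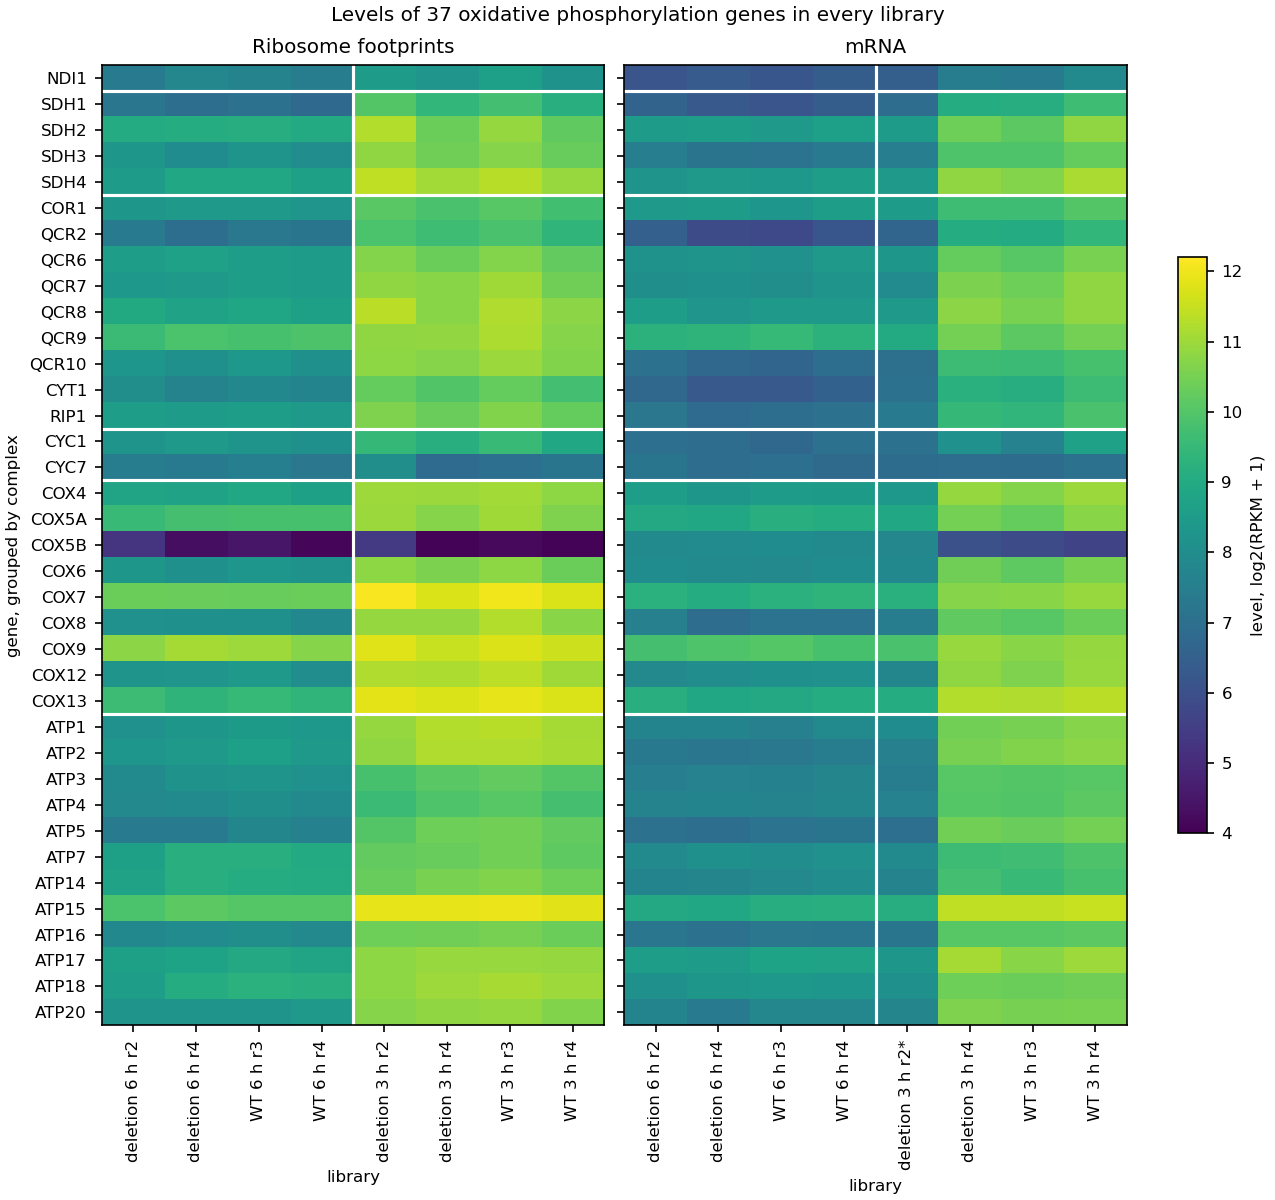
Levels of the 37 genes in every library, as log2(RPKM + 1), with genes in rows grouped by complex and libraries in columns (left, footprints; right, mRNA; the asterisk marks the mRNA library labelled deletion 3 h replicate 2). Dark colours are low levels: the 6 h columns are darker than the 3 h columns for nearly every gene, COX5B is the darkest row in footprints, and the asterisked column resembles the 6 h columns.

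NDI1 (YML120C), the internal NADH dehydrogenase, had footprints of 203 and 176 RPKM at 6 h, against 393 and 289 RPKM at 3 h. Its mRNA stood at 71.9 and 84.6 RPKM at 6 h, against 166 and 236 RPKM at 3 h. The groups did not overlap in either kind of library, and the falls were among the smaller ones. NDI1 footprints fell by 0.83 (SE 0.20, limma, adjusted p = 0.00474) and its mRNA fell by 1.33 (SE 0.19, limma, adjusted p = 0.000294) on the log2 scale. Both changes were close to the all-gene medians, and after rescaling both had the opposite sign, at 0.14 in footprints and 0.05 in mRNA, neither past the threshold. Without WT replicate 3 the footprint call was lost (limma, adjusted p = 0.0818).

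Complex II, succinate dehydrogenase, links the citric acid cycle to the respiratory chain, and all 4 of its subunit genes fell in footprints and in mRNA. SDH1 (YKL148C), the flavoprotein that oxidises succinate, had footprints of 133 and 109.7 RPKM at 6 h, against 852 and 577 RPKM at 3 h. SDH1 mRNA stood at 71.4 and 85.4 RPKM at 6 h, against 556 and 798 RPKM at 3 h. It was the member of the complex with the largest fall: it fell by 2.53 in footprints (SE 0.25, limma, adjusted p = 3.72e-05) and fell by 3.08 in mRNA (SE 0.20, limma, adjusted p = 1.05e-05). SDH2 (YLL041C), the iron-sulfur subunit, had footprints of 555 and 514 RPKM at 6 h, against 1909.7 and 1172 RPKM at 3 h. SDH2 mRNA stood at 347 and 394 RPKM at 6 h, against 1123 and 1842 RPKM at 3 h. Its fall was the smallest of the complex: it fell by 1.48 in footprints (SE 0.31, limma, adjusted p = 0.00218) and fell by 1.96 in mRNA (SE 0.23, limma, adjusted p = 0.000111). The SDH2 footprint call was lost without WT replicate 3 (limma, adjusted p = 0.0506), and after rescaling neither SDH2 change passed the threshold, at -0.51 in footprints and -0.56 in mRNA (limma, adjusted p = 0.174 and 0.0523). The membrane anchors SDH3 and SDH4 changed by -2.37 and -2.36 in footprints and by -2.86 and -2.45 in mRNA. As a description, the footprint ratio of SDH2 over SDH1 was 4.18 and 4.69 at 6 h, against 2.24 and 2.03 at 3 h. SDH1, SDH3 and SDH4 each have a related gene in the genome (YJL045W, SHH3 and SHH4), and reads shared between such copies could not be assigned with certainty.

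Complex III, the cytochrome bc complex, passes electrons from ubiquinol to cytochrome c, and all 9 of its measured genes fell in both kinds of library. The small subunits QCR10 and QCR9 marked its extremes in footprints. QCR10 (YHR001W-A) had 329 and 274 RPKM at 6 h, against 1997 and 1592 RPKM at 3 h, and its mRNA stood at 101 and 123 RPKM at 6 h, against 775 and 891 RPKM at 3 h. Every 6 h library was below every 3 h library, and QCR10 fell by 2.57 in footprints (SE 0.16, limma, adjusted p = 4.49e-06) and fell by 2.89 in mRNA (SE 0.16, limma, adjusted p = 7.06e-06). QCR9 (YGR183C) kept far more of its level, with footprints of 901 and 970.4 RPKM at 6 h, against 2316 and 1670.0 RPKM at 3 h. QCR9 mRNA stood at 716 and 619 RPKM at 6 h, against 1116 and 1439.8 RPKM at 3 h. It fell by 1.07 in footprints (SE 0.19, limma, adjusted p = 0.000754) and fell by 0.93 in mRNA (SE 0.17, limma, adjusted p = 0.00112). The footprint change was close to the all-gene median of -0.96, and the mRNA fall was smaller than the all-gene median of -1.37. Without WT replicate 3 the QCR9 footprint call was lost (limma, adjusted p = 0.0524). After rescaling the QCR9 footprint change was -0.097, not past the threshold (limma, adjusted p = 0.668), and its mRNA change was 0.47, past the threshold in the other direction (limma, adjusted p = 0.046).

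The catalytic and core subunits of complex III fell too. CYT1, the cytochrome subunit that hands electrons to cytochrome c, fell by 2.25 in footprints and fell by 2.96 in mRNA. RIP1, the Rieske iron-sulfur protein, fell by 1.96 in footprints and fell by 2.58 in mRNA. Of the core proteins, COR1 fell by 1.55 in footprints and fell by 1.41 in mRNA, the mRNA call being lost after rescaling (-0.02), and QCR2 fell by 2.36 in footprints and fell by 3.24 in mRNA. The small subunits QCR6, QCR7 and QCR8 changed by -1.90, -2.16 and -2.23 in footprints, and by -2.03, -2.46 and -2.29 in mRNA.

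Cytochrome c, the soluble carrier between complexes III and IV, comes in a main aerobic form, CYC1 (YJR048W), and a minor form, CYC7 (YEL039C), better known from cells low in oxygen. CYC1 footprints stood at 301 and 275 RPKM at 6 h, against 746 and 468 RPKM at 3 h. CYC1 mRNA stood at 108 and 133 RPKM at 6 h, against 198 and 409 RPKM at 3 h. The 3 h replicates of CYC1 differed widely, yet every 6 h library was lower. CYC1 fell by 1.03 in footprints (SE 0.23, limma, adjusted p = 0.00272) and fell by 1.24 in mRNA (SE 0.31, limma, adjusted p = 0.00604), near the all-gene medians, and without WT replicate 3 the footprint call was lost (limma, adjusted p = 0.0581). After rescaling neither CYC1 change passed the threshold, at -0.063 in footprints and 0.15 in mRNA. CYC7 footprints stood at 184 and 152 RPKM at 6 h, against 127 and 146 RPKM at 3 h. CYC7 mRNA stood at 127 and 113 RPKM at 6 h, against 118 and 134 RPKM at 3 h. Neither CYC7 change passed the threshold, at 0.30 in footprints (95% interval -0.47 to 1.06; limma, adjusted p = 0.422) and -0.07 in mRNA (95% interval -0.41 to 0.27; limma, adjusted p = 0.649). Relative to the falling table CYC7 was higher, by 1.26 in footprints (limma, adjusted p = 0.0106) and by 1.31 in mRNA (limma, adjusted p = 4.69e-05) after rescaling. The footprint ratio of CYC1 over CYC7 was 1.64 and 1.81 at 6 h, against 5.87 and 3.21 at 3 h.

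Complex IV, cytochrome c oxidase, reduces oxygen, and 8 of its 9 genes fell in both kinds of library. COX8 (YLR395C), a small subunit, fell furthest in footprints of all 37 genes. Its footprints stood at 278 and 225 RPKM at 6 h, against 2425 and 1703 RPKM at 3 h. COX8 mRNA stood at 139.6 and 139.8 RPKM at 6 h, against 1064 and 1303 RPKM at 3 h. It fell by 3.02 in footprints (SE 0.19, limma, adjusted p = 3.98e-06) and fell by 3.07 in mRNA (SE 0.21, limma, adjusted p = 1.20e-05). COX12, COX13, COX6 and COX4 changed by -2.99, -2.41, -2.35 and -2.16 in footprints, and by -2.64, -2.27, -2.44 and -2.31 in mRNA. COX7 and COX9 changed less, by -1.55 and -0.82 in footprints and by -1.56 and -0.88 in mRNA. After rescaling COX9 had the opposite sign, at 0.15 in footprints (limma, adjusted p = 0.522) and 0.51 in mRNA (limma, adjusted p = 0.0323), and the COX7 mRNA call was lost (-0.16, limma, adjusted p = 0.349). COX9 became the highest of the 37 genes in WT footprints at 6 h, with 2046 and 1665 RPKM. At 3 h it had 3475 and 3066 RPKM, below COX7 in both libraries. The footprint ratio of COX9 over COX8 was 7.35 and 7.40 at 6 h, against 1.43 and 1.80 at 3 h.

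**Figure D2:**
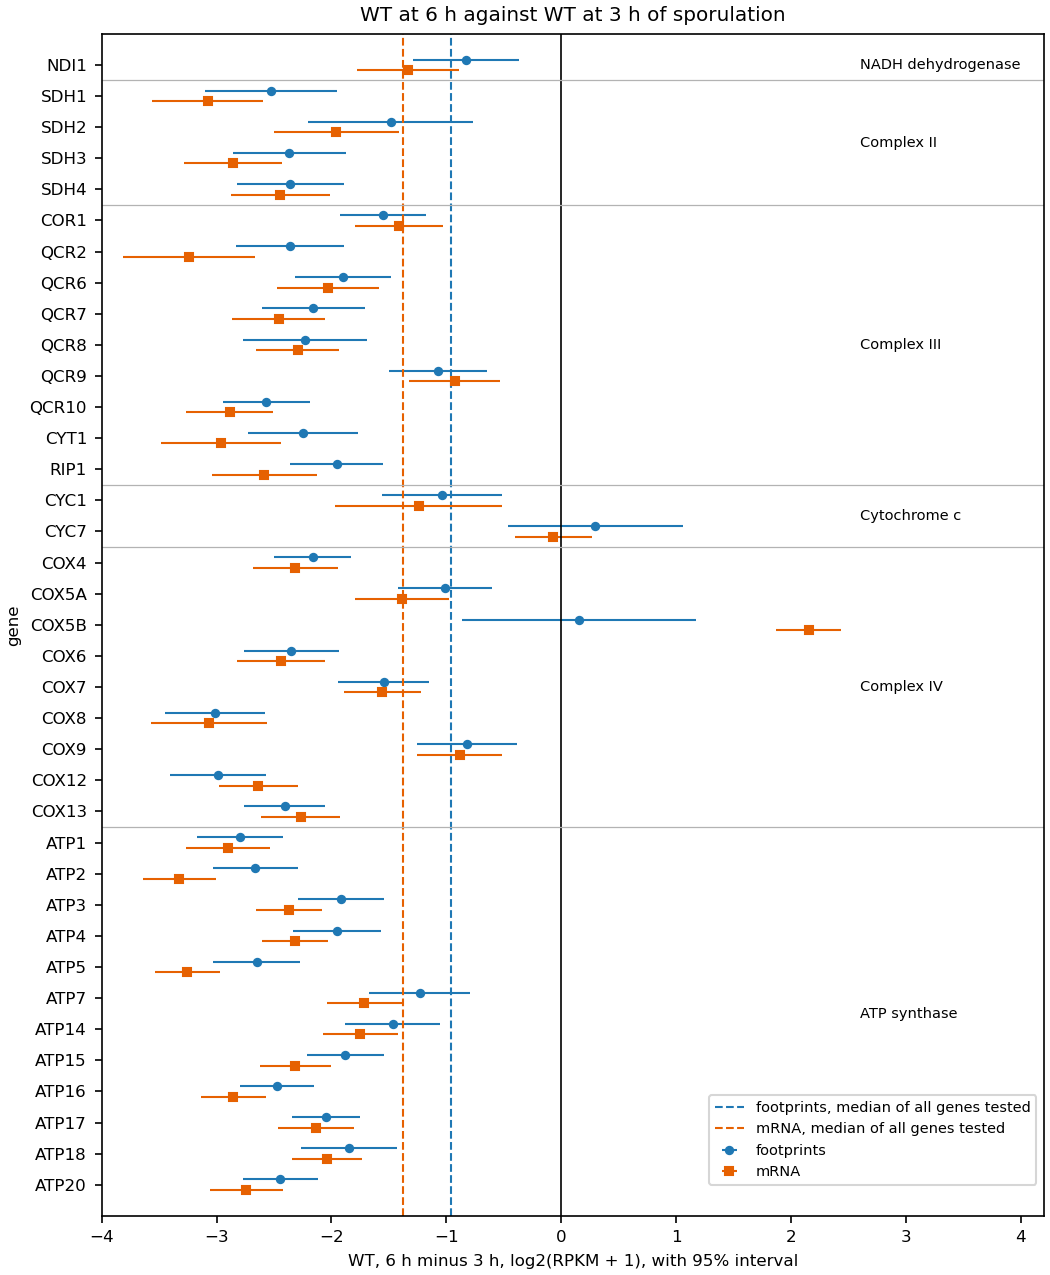
Change of each gene in WT, 6 h minus 3 h, in footprints (circles) and mRNA (squares) on the log2(RPKM + 1) scale, with 95% intervals from limma; dashed lines mark the medians of all genes tested, -0.96 and -1.37. COX5B mRNA, at 2.15, is the one value clearly above 0, and most genes lie to the left of the dashed lines.

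COX5A and COX5B are alternative forms of the same complex IV subunit, COX5A being the aerobic form and COX5B the form favoured when oxygen is scarce. COX5A (YNL052W) had footprints of 903 and 897 RPKM at 6 h, against 2086 and 1577 RPKM at 3 h. COX5A mRNA stood at 564 and 542 RPKM at 6 h, against 1233 and 1694 RPKM at 3 h. It fell by 1.01 in footprints (SE 0.18, limma, adjusted p = 0.000834) and fell by 1.39 in mRNA (SE 0.17, limma, adjusted p = 0.000154), both close to the all-gene medians. After rescaling neither COX5A change passed the threshold, at -0.036 in footprints and 0.0087 in mRNA (limma, adjusted p = 0.870 and 0.968). COX5B (YIL111W) had footprints of 21.5 and 16.4 RPKM at 6 h, against 17.6 and 15.9 RPKM at 3 h, from 30 to 45 reads per library. COX5B mRNA stood at 252 and 234 RPKM at 6 h, against 57.5 and 50.5 RPKM at 3 h. The mRNA groups were far apart and the footprint groups overlapped. COX5B mRNA rose by 2.15 (SE 0.12, limma, adjusted p = 6.94e-06). It was the only gene of the 37 whose mRNA rose. Its footprints changed by 0.15 (95% interval -0.87 to 1.17; limma, adjusted p = 0.753), which did not pass the threshold. Relative to the falling table COX5B footprints were higher, by 1.07 after rescaling, just short of the threshold (limma, adjusted p = 0.0512). After rescaling COX5B mRNA rose by 3.53 (limma, adjusted p = 2.7e-07). In mRNA the ratio of COX5A over COX5B was 2.23 and 2.31 at 6 h, against 21.4 and 33.5 at 3 h. In footprints it was 42.1 and 54.7 at 6 h, against 118 and 98.9 at 3 h.

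The neighbours of COX5B were looked up in the RefSeq R64 gene order after its values were seen. HOS4 (YIL112W) lies immediately upstream on the same strand, and HPM1 (YIL110W) immediately downstream. HOS4 mRNA stood at 338 and 369.8 RPKM in WT at 6 h, against 61.7 and 64.4 RPKM at 3 h, a rise of 2.47 (SE 0.13, limma, adjusted p = 6.94e-06). HOS4 footprints, unlike those of COX5B, passed the threshold too, at 342 and 341 RPKM at 6 h, against 40.1 and 35.7 RPKM at 3 h. They rose by 3.14 (SE 0.18, limma, adjusted p = 2.65e-06). HPM1 mRNA was lower, at 7.81 and 5.89 RPKM at 6 h, against 35.3 and 36.1 RPKM at 3 h. Gene totals do not show where reads lie along a transcript, so whether HOS4 transcripts contribute reads to COX5B was not tested.

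**Figure D3:**
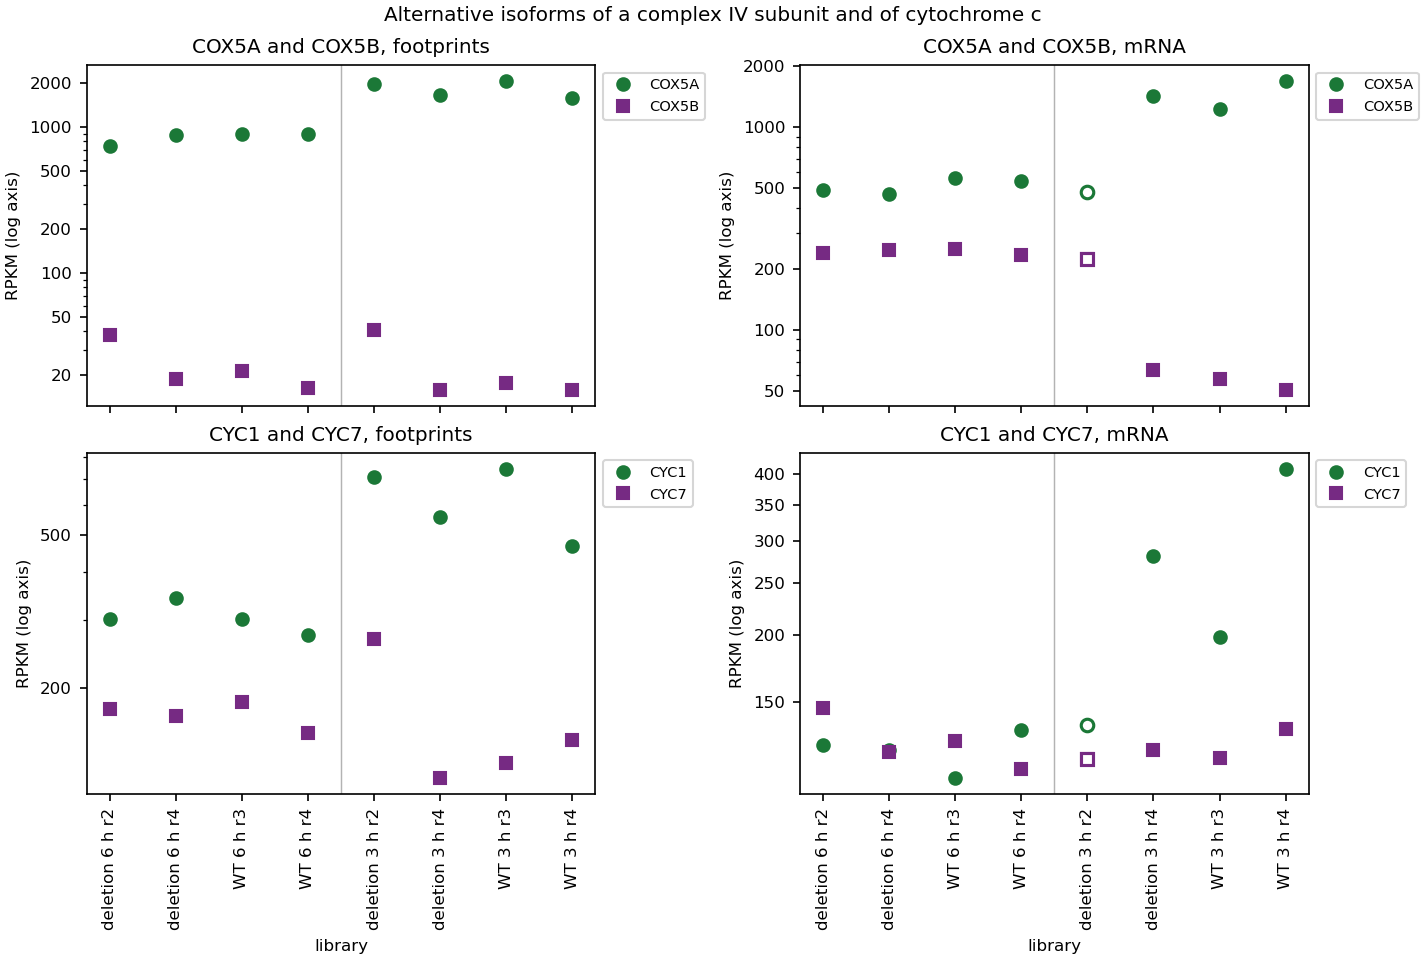
RPKM (log axes) of COX5A and COX5B (top) and of CYC1 and CYC7 (bottom) in each footprint library (left) and mRNA library (right); open symbols are the mRNA library labelled deletion 3 h replicate 2. COX5B mRNA lies at 234 to 252 RPKM in the 4 libraries labelled 6 h, against 50.5 to 63.8 RPKM in the 3 h libraries with filled symbols, while COX5B footprints are highest in both deletion replicate 2 libraries.

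The ATP synthase uses the proton gradient to make ATP, and all 12 of its measured genes fell in both kinds of library. ATP1 (YBL099W), the alpha subunit of the catalytic head, had footprints of 356 and 328 RPKM at 6 h, against 2565 and 2207 RPKM at 3 h. ATP1 mRNA stood at 187 and 238 RPKM at 6 h, against 1480.4 and 1686 RPKM at 3 h. It had the largest footprint fall of the 12 and fell by 2.80 (SE 0.16, limma, adjusted p = 2.83e-06), and fell by 2.90 in mRNA (SE 0.15, limma, adjusted p = 6.39e-06). ATP7 (YKL016C), of the peripheral stalk, had footprints of 561 and 517 RPKM at 6 h, against 1405 and 1144 RPKM at 3 h. ATP7 mRNA stood at 258 and 281 RPKM at 6 h, against 824 and 953 RPKM at 3 h. It had the smallest fall of the 12: it fell by 1.23 in footprints (SE 0.19, limma, adjusted p = 0.000403) and fell by 1.71 in mRNA (SE 0.14, limma, adjusted p = 1.91e-05). After rescaling neither ATP7 change passed the threshold, at -0.26 in footprints and -0.32 in mRNA (limma, adjusted p = 0.305 and 0.114).

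Within the catalytic head and central stalk, ATP2 (beta), ATP3 (gamma), ATP16 (delta) and ATP15 (epsilon) changed by -2.66, -1.92, -2.47 and -1.88 in footprints. Their mRNAs changed by -3.32, -2.37, -2.85 and -2.31, and ATP2 had the largest mRNA fall of the 37 genes. The peripheral stalk subunits ATP4, ATP5 and ATP14 changed by -1.95, -2.65 and -1.47 in footprints and by -2.32, -3.25 and -1.75 in mRNA. After rescaling neither ATP14 change passed the threshold, at -0.49 in footprints and -0.36 in mRNA. The membrane subunits ATP17, ATP18 and ATP20 changed by -2.05, -1.85 and -2.44 in footprints and by -2.14, -2.04 and -2.74 in mRNA. The head holds more copies of the alpha and beta subunits than of gamma. The footprint ratio of ATP1 over ATP3 was 1.17 and 1.15 at 6 h, against 2.13 and 2.14 at 3 h, and that of ATP2 over ATP3 was 1.29 and 1.21, against 2.01 and 2.19. In mRNA the ATP1 over ATP3 ratio was 0.962 and 1.13 at 6 h, against 1.44 and 1.56 at 3 h. These ratios are descriptions of the libraries, with no test.

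Translation efficiency is the footprint level over the mRNA level of the same sample, and its median over the 37 genes was above that of all genes in each WT sample. The median ratio of the 37 was 1.60 and 1.51 in WT at 6 h, where the median of all genes was 1.02 and 1.04. At 3 h it was 1.61 and 1.09, where the median of all genes was 0.767 and 0.718. By the mean of both samples, RIP1 had the highest ratio at 6 h, 3.12 and 2.50, close to QCR10 with 3.24 and 2.23, and CYC1 the highest at 3 h, 3.76 and 1.14. The 3 h values of CYC1 spread too widely to place it above its neighbours QCR10 (2.58 and 1.79) and COX7 (2.43 and 1.72). COX5B was the lowest at both times, with 0.085 and 0.0701 at 6 h, against 0.307 and 0.316 at 3 h. Those values put COX5B at a mean percentile of 0.406 among all genes at 6 h, against 7.89 at 3 h. By the mean of both samples the next lowest genes were COR1 at 6 h (1.08 and 0.83) and ATP4 at 3 h (1.07 and 0.793).

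Of the 37 genes, 2 had a higher efficiency at 6 h and 1 a lower one, where 30.2% of the 5290 genes tested were higher and 2.48% lower. COX5B efficiency fell by 2.00 (SE 0.53, limma, adjusted p = 0.0186). ATP2 rose by 0.66 (SE 0.21, limma, adjusted p = 0.0349) and ATP5 by 0.60 (SE 0.20, limma, adjusted p = 0.0428). The efficiency of all genes tested shifted by a median of 0.50, against 0.30 for the 37, and 31 of the 37 lay below that all-gene median. After rescaling no gene of the 37 was higher and COX5B alone was lower, where 2.16% of genes tested were higher and 3.25% lower. Without either WT replicate none of the 37 passed the threshold, COX5B having an adjusted p of 0.376 without replicate 3 and of 0.38 without replicate 4 (limma). With deletion replicate 2 or replicate 4 left out 7 passed, and with the library set apart included none did.

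**Figure D4:**
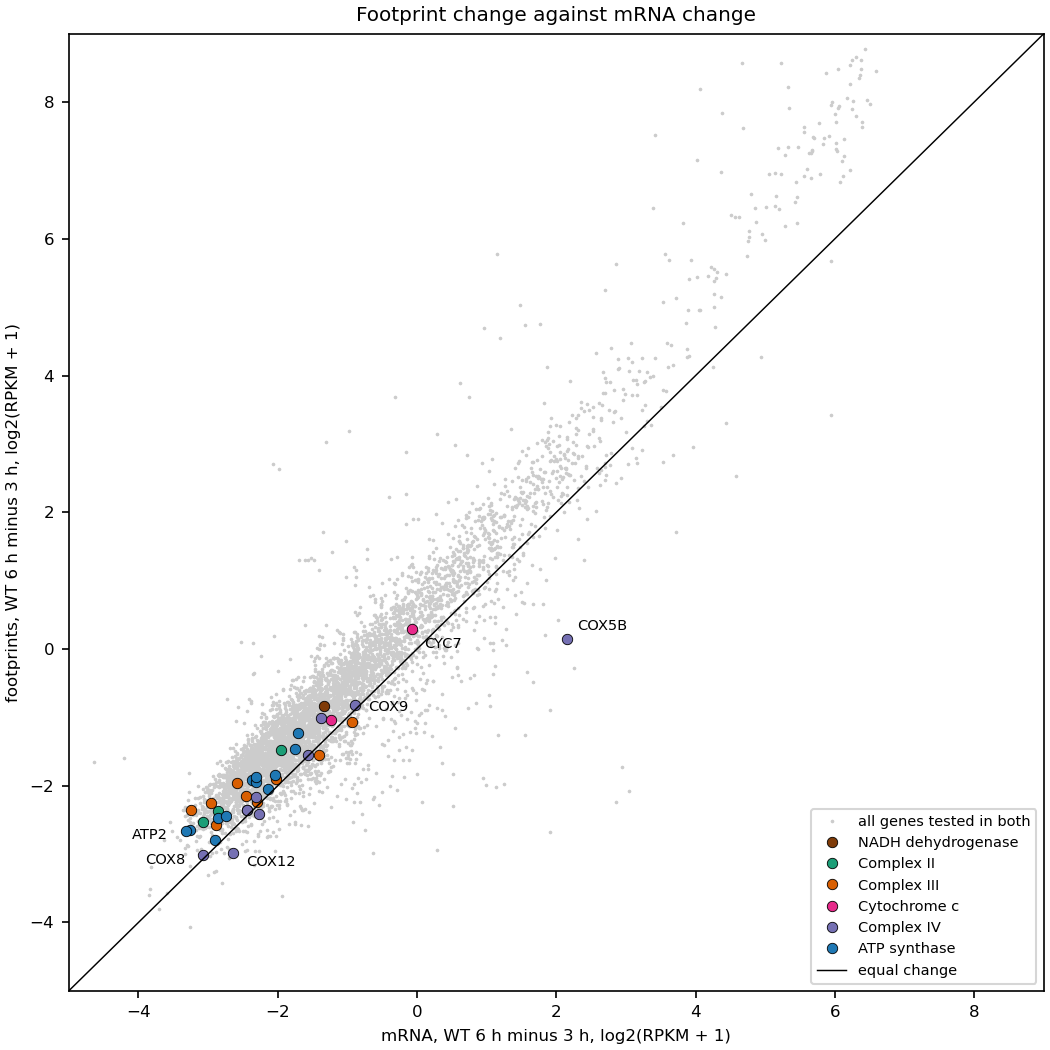
Footprint change against mRNA change in WT, 6 h minus 3 h, on the log2(RPKM + 1) scale, for all genes tested in both kinds of library (grey) and for the 37 genes coloured by complex; the line marks equal change. COX5B lies far below the line, at 2.15 in mRNA and 0.15 in footprints, and the other 36 genes lie within or at the lower side of the grey cloud, near the line.

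The WT replicates at 3 h differed from each other for nearly all of these genes, in opposite directions in footprints and mRNA. Footprints were higher in replicate 3 than in replicate 4 for 36 of the 37 genes, by a median of 0.33 on the log2 scale, and mRNA was lower in replicate 3 for 36 of the 37, with a median difference of -0.27. Over all genes tested the medians of these differences were 0.05 in footprints and -0.02 in mRNA. Both differences enter the efficiency at 3 h, whose median over the 37 genes was 1.61 in replicate 3 and 1.09 in replicate 4. Over all genes it was 0.767 and 0.718. The median efficiency of complex II was 1.62 in replicate 3, against 0.796 in replicate 4, whereas that of the ATP synthase was 1.43 and 1.18. At 6 h footprints were higher in replicate 3 for 34 of the 37 genes and mRNA for 9 of the 37, with medians of 0.13 and -0.13, against 0.01 and -0.02 for all genes tested.

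In the deletion strain the time comparison gave the same picture. The 37 genes held 0.647 and 0.686% of footprint reads at 6 h, against 2.98 and 2.82% at 3 h. In footprints 35 of the 37 fell and none rose (limma), where 65.1% of all genes tested fell and 19.3% rose, and the median change was -2.17, against -0.998 for all genes. In mRNA, with 1 library at 3 h assumed to vary like the other groups, 35 fell and 1 rose, where 71.8% fell and 14.9% rose, with a median of -2.44, against -1.36. The uncalled genes were CYC7 and COX5B in footprints and CYC7 in mRNA, as in WT. After rescaling, 27 were lower and 1 higher in footprints, where 31.3% of all genes tested were lower and 34.8% higher. In mRNA 26 were lower and 2 higher, where 30.6% were lower and 34.6% higher.

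For the named genes, deletion footprints of NDI1 stood at 167 and 219 RPKM at 6 h, against 365 and 308 RPKM at 3 h. SDH1 had 148 and 123 RPKM at 6 h, against 1028 and 689.6 RPKM at 3 h. SDH2 had 524 and 544 RPKM at 6 h, against 2466 and 1314 RPKM at 3 h. Every 6 h library was lower, and the 3 h libraries of SDH1 and SDH2 differed widely, replicate 2 being the higher. QCR9 had 769 and 947 RPKM at 6 h, against 1846 and 1864 RPKM at 3 h. QCR10 had 313 and 276 RPKM at 6 h, against 1783 and 1678 RPKM at 3 h. COX8 had 280.1 and 277 RPKM at 6 h, against 1913 and 1919.5 RPKM at 3 h. For these complex III and IV genes every 6 h library lay below every 3 h library. ATP1 had 282 and 324 RPKM at 6 h, against 1930.0 and 2417 RPKM at 3 h. ATP7 had 407 and 581 RPKM at 6 h, against 1189.6 and 1254 RPKM at 3 h. COX5A had 746 and 883 RPKM at 6 h, against 1989.7 and 1677 RPKM at 3 h. Here too the groups did not overlap, and replicate 2 was the lower for both ATP synthase genes at both times. CYC1 had 302 and 342 RPKM at 6 h, against 710.4 and 558 RPKM at 3 h. CYC7 had 176 and 169 RPKM at 6 h, against 267 and 116 RPKM at 3 h. COX5B had 37.5 and 18.8 RPKM at 6 h, against 41.0 and 15.8 RPKM at 3 h. CYC1 was lower in both 6 h libraries, whereas for CYC7 and COX5B the groups overlapped and replicate 2 held the highest value at 3 h. COX5B was higher in replicate 2 at both times, on 86 and 113 reads, against 37 and 33 reads in replicate 4.

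Deletion mRNA of COX5B stood at 240.0 and 249 RPKM at 6 h, against 63.8 RPKM at 3 h, and the library labelled deletion 3 h replicate 2 held 223 RPKM. COX5B mRNA rose by 1.92 (SE 0.15, limma, adjusted p = 3.93e-05) and was again the only one of the 37 to rise. Its efficiency was 0.156 and 0.0755 at 6 h, against 0.247 in the one 3 h sample that could be used. CYC7 mRNA stood at 146 and 121 RPKM at 6 h, against 122 RPKM at 3 h, with 118 RPKM in the library labelled deletion 3 h replicate 2. CYC1 mRNA stood at 125 and 122 RPKM at 6 h, against 281 RPKM at 3 h, with 136 RPKM in that library. The CYC7 change, 0.12, did not pass the threshold (95% interval -0.29 to 0.53), whereas CYC1 fell by 1.18 (SE 0.38, limma, adjusted p = 0.0201). COX5A mRNA stood at 489.6 and 469 RPKM at 6 h, against 1426 RPKM at 3 h, with 478 RPKM in the library set apart. NDI1 mRNA stood at 71.3 and 81.4 RPKM at 6 h, against 177 RPKM at 3 h, with 88.8 RPKM in the library set apart. SDH1 mRNA stood at 96.0 and 77.3 RPKM at 6 h, against 534 RPKM at 3 h, with 122 RPKM in the library set apart. For each of these genes but CYC7 the value set apart lay nearer to the 6 h libraries than to the other 3 h library. SDH2 mRNA stood at 364 and 376 RPKM at 6 h, against 1345 RPKM at 3 h, with 359 RPKM in the library set apart. QCR9 mRNA stood at 613 and 639 RPKM at 6 h, against 1444 RPKM at 3 h, with 516 RPKM in the library set apart. QCR10 mRNA stood at 134 and 109 RPKM at 6 h, against 784 RPKM at 3 h, with 130.2 RPKM in the library set apart. The same held for COX8, ATP1 and ATP7. COX8 mRNA stood at 187 and 121 RPKM at 6 h, against 1181 RPKM at 3 h, with 172 RPKM in the library set apart. ATP1 mRNA stood at 205 and 206 RPKM at 6 h, against 1414 RPKM at 3 h, with 255 RPKM in the library set apart. ATP7 mRNA stood at 243 and 275 RPKM at 6 h, against 793 RPKM at 3 h, with 244 RPKM in the library set apart.

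Between strains, no change in any of the 37 genes passed the threshold in footprints or mRNA at 6 h or 3 h, or in translation efficiency at 6 h (limma, and limma-voom on recovered reads). None had an unadjusted p under 0.05 in either of these fits. Calls were rare over the whole table: 0.0565% of genes tested in footprints at 6 h, 0.0377% in footprints at 3 h, 0.035% in mRNA at 6 h, 0.0175% in mRNA at 3 h and 0.0189% in efficiency at 6 h. At an unadjusted p under 0.05 these comparisons held 139, 96, 128, 269 and 63 genes of the whole table. In footprints the median difference over the 37 genes was -0.02 at 6 h and -0.00195 at 3 h, against -0.03 and 0.03 for all genes tested. The 95% intervals lay within 1 log2 unit of 0 for 36 of the 37 genes at 6 h and for 35 of 37 at 3 h, with a median half-width of 0.42. Differences smaller than these intervals were not detectable with 2 libraries a group. The intervals are per gene and not adjusted for the number of genes tested, whereas calls are, so larger differences could be missed too.

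At 6 h the smallest p-values in footprints belonged to ATP synthase genes. ATP18 had 380.0 and 539.8 RPKM in the deletion, against 606 and 576 RPKM in WT, a difference of -0.38 (95% interval -0.80 to 0.04; limma, adjusted p = 0.999). ATP5 had 165 and 171 RPKM, against 217 and 194 RPKM, a difference of -0.29 (95% interval -0.66 to 0.09; limma, adjusted p = 0.999). ATP17 had 405 and 428 RPKM, against 498 and 444 RPKM, a difference of -0.17 (95% interval -0.47 to 0.12; limma, adjusted p = 0.999). For all 3 genes both deletion libraries were below both WT libraries, by amounts within the error of the fit. Across the 37 genes the groups did not overlap for 8 at 6 h, where 25.1% of all genes tested did not, and for 1 at 3 h, where 28.2% did not.

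All 12 ATP synthase genes had a negative difference at 6 h, with a median of -0.15 in footprints and of -0.12 in mRNA, and none passed the threshold. Over all genes tested the medians were -0.03 in footprints and 0.0011 in mRNA. The 12 genes were read from the same libraries, so their shared direction is not a set of independent results. In footprints the difference was larger in deletion replicate 2: the 12 genes had a median of -0.25 from the WT mean, with 0 of 12 higher, against -0.07 and 4 of 12 higher in replicate 4. In mRNA the medians were -0.13 in replicate 2 and -0.18 in replicate 4, with 0 and 1 of 12 higher. At 3 h the footprint median was -0.12, with -0.23 in replicate 2 and 0.01 in replicate 4. Complex II went the other way at 3 h in replicate 2, with 4 of 4 genes higher and a median of 0.44, against 0 of 4 and -0.08 in replicate 4. For both complexes the 3 h medians moved with deletion replicate 2.

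At 3 h the smallest p-values in footprints were those of COX5B, CYC7 and SDH1. COX5B had 41.0 and 15.8 RPKM in the deletion, against 17.6 and 15.9 RPKM in WT, a difference of 0.58 (95% interval -0.44 to 1.60; limma, adjusted p = 1). CYC7 had 267 and 116 RPKM, against 127 and 146 RPKM, a difference of 0.37 (95% interval -0.39 to 1.13; limma, adjusted p = 1). SDH1 had 1028 and 689.6 RPKM, against 852 and 577 RPKM, a difference of 0.26 (95% interval -0.31 to 0.84; limma, adjusted p = 1). In each case replicate 2 was above both WT libraries, and replicate 4 was below the WT mean for COX5B, CYC7 and SDH1 alike. COX5B and CYC7 are the forms of their proteins known from low oxygen, SDH1 is not such a form, and a link to oxygen was not tested.

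**Figure D5:**
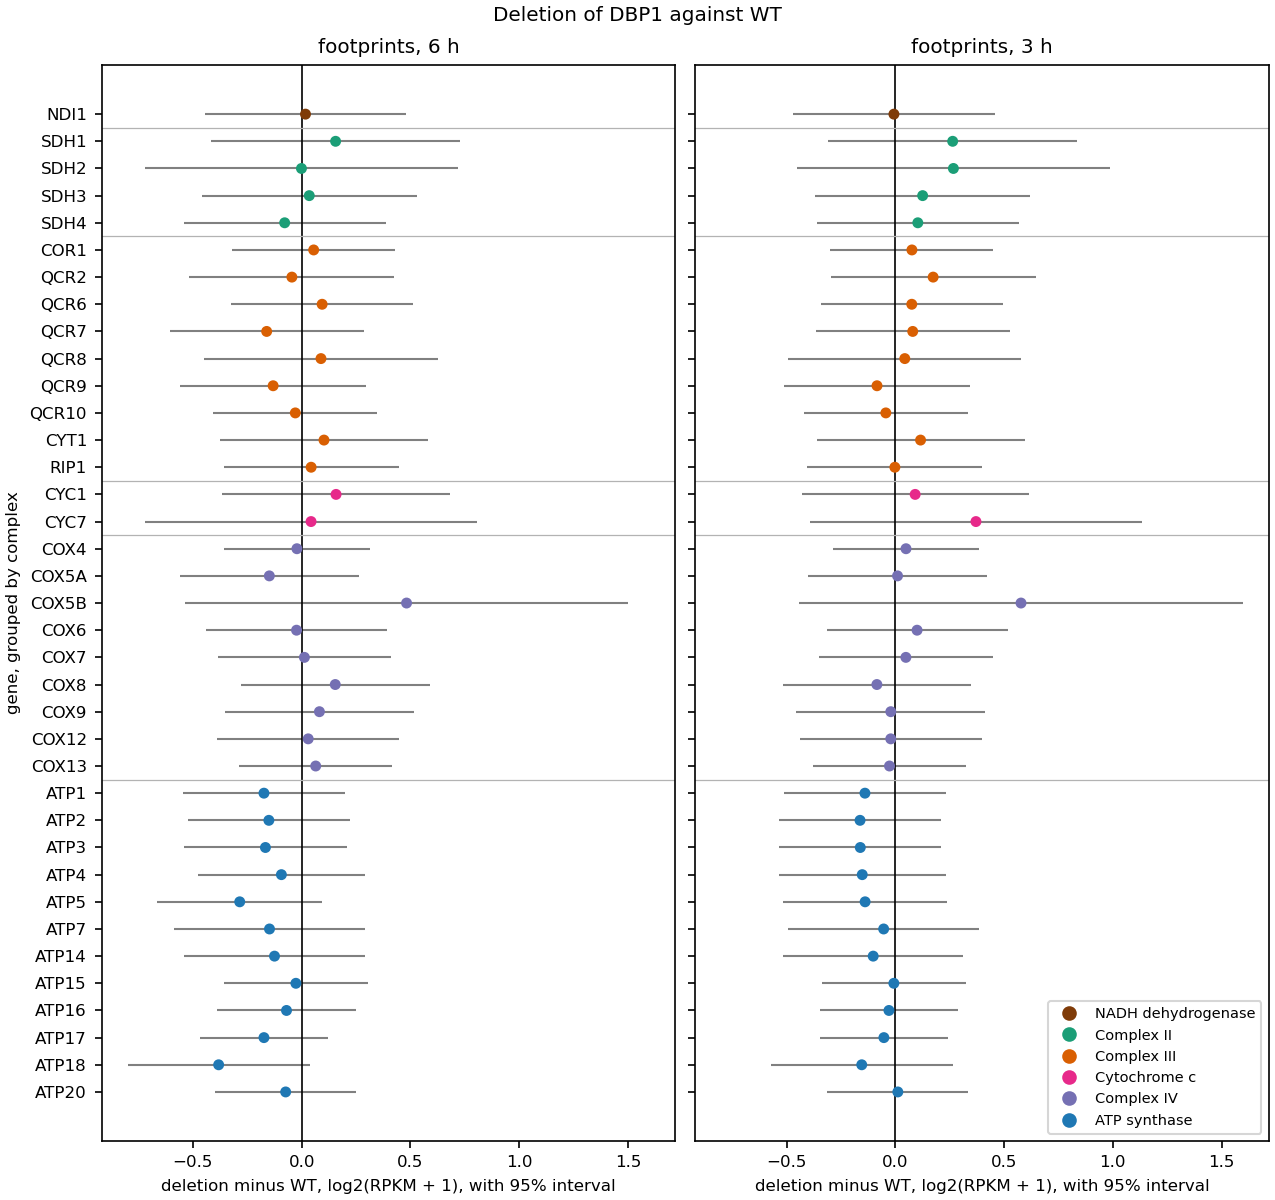
Difference between the deletion and WT in footprints at 6 h (left) and 3 h (right), on the log2(RPKM + 1) scale, for each gene with its 95% interval from limma, coloured by complex. Every interval includes 0, and the 12 ATP synthase points at 6 h lie between -0.38 and -0.03.

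In mRNA at 6 h the smallest p-values were those of ATP20, ATP15 and ATP17. ATP20 had 207 and 171 RPKM in the deletion, against 222 and 222 RPKM in WT, a difference of -0.24 (SE 0.13). ATP15 had 495 and 471 RPKM, against 545 and 579.7 RPKM, a difference of -0.22 (SE 0.13). ATP17 had 378 and 359 RPKM, against 435 and 423 RPKM, a difference of -0.22 (SE 0.14). For these 3 genes both deletion libraries were below both WT libraries, and the limma adjusted p was 0.9995. Across the 37 genes the mRNA groups did not overlap for 7 at 6 h, where 23.2% of all genes tested did not. In mRNA at 3 h, with 1 deletion library, they were COX5B at 63.8 RPKM, against 57.5 and 50.5 RPKM in WT, SDH1 at 534 RPKM, against 556 and 798 RPKM, and ATP17 at 2168 RPKM, against 1729.6 and 2063 RPKM. Their differences were 0.24, -0.32 and 0.20. In efficiency at 6 h the smallest p-values were those of ATP18 (-0.27, SE 0.23), ATP15 (0.19, SE 0.18) and COX12 (0.23, SE 0.24), with a limma adjusted p of 0.9998. The deletion effect on footprints did not differ detectably between 6 h and 3 h for any of the 37 genes, nor for any gene of the table (limma; 78 of 5312 genes and none of the 37 had an unadjusted p under 0.05). The genes of smallest p there were COX8 (0.24), ATP18 (-0.23) and QCR7 (-0.24).

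Genes that build, regulate or feed the chain were read from lists chosen with earlier results known, in WT footprints at 6 h against 3 h. Over all genes tested, as given above, 63.3% fell and 20.1% rose in that comparison, with a median of -0.96. Of 16 further respiratory subunits and paralogues, 12 fell and 2 rose, with a median of -1.22. Those of smallest p were STF1, which acts with the inhibitor of the ATP synthase (-2.55), the lactate dehydrogenase CYB2 (-3.17) and the D-lactate dehydrogenase DLD1 (-2.88). Of 55 tested assembly factors, 35 fell and 9 rose, with a median of -0.73, shares of 63.6% and 16.4% that are near those of all genes. COX20 (-2.42), which helps complex IV form, CBP4 (-2.62), which helps complex III form, and CYT2 (-2.50), which attaches haem to CYT1, had the smallest p. Of the 7 mitochondrially encoded subunits only ATP8 passed the filter in footprints, with a change of -2.25 (SE 1.14) that did not pass the threshold.

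Of 11 transcriptional regulators of respiration, 9 fell and none rose, with a median of -1.51. ADR1, an activator of genes for non-fermentable carbon (-2.17), the kinase SNF1 (-1.95) and HAP2, a DNA-binding subunit of the HAP complex that activates respiratory genes (-1.33), had the smallest p. HAP4, the activating subunit of that complex, and ROX1, a repressor of hypoxic genes, were added after their values were seen. HAP4 footprints stood at 45.2 and 41.6 RPKM at 6 h, against 286 and 163 RPKM at 3 h, and fell by 2.29 (SE 0.24, limma, adjusted p = 5.38e-05). HAP4 mRNA moved the other way: it stood at 226 and 268 RPKM at 6 h, against 146 and 202 RPKM at 3 h, and rose by 0.52 (SE 0.18, limma, adjusted p = 0.0252). HAP4 efficiency fell by 2.81 (SE 0.33, limma, adjusted p = 0.000454). Of the 11 regulators, 10 fell in mRNA and 1 rose, where 72.8% of all genes tested fell and 16.5% rose. In efficiency 1 of the 11 fell and 3 rose, where 2.48% of genes tested fell and 30.2% rose. ROX1 footprints stood at 61.0 and 52.8 RPKM at 6 h, against 207 and 166 RPKM at 3 h, and ROX1 fell by 1.69 (SE 0.23, limma, adjusted p = 0.000197). Of 18 genes of the TCA and glyoxylate cycles, 12 fell (66.7%) and 2 rose, with a median of -1.38, also a share near that of all genes. The malate dehydrogenase MDH3 (-1.70) and the citrate synthases CIT2 (-2.23) and CIT3 (-2.54) had the smallest p. No gene of these 5 lists passed the threshold between strains in footprints at either time.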

How the data were processed

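Ribosome footprints and mRNA were measured in SK1 yeast with and without DBP1, at 6 h and 3 h in sporulation medium. The authors deposited 1 table of RPKM per gene for the 16 libraries, and each column was matched to its sample by name. Reads were handled with CASAVA, bcl2fastq 2.17 and Bowtie2, per the submitters' processing notes. Not given in the sources used here are the annotation, the build, the program that counted reads and whether it used strand. The counting of any reads shared by related genes (COX5A and COX5B, CYC1 and CYC7, SDH1 and YJL045W, SDH3 and SHH3, SDH4 and SHH4) is therefore uncertain. The same holds for overlapping and antisense genes. How many reads such genes share was not tested.

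RPKM values were whole multiples of a per-read step within 0.02 reads for all 6679 genes. This gave the reads in genes of each library and, as an alternative to the main test, whole reads for limma-voom. The main test was limma 3.58.1 in R 4.3.3 on log2(RPKM + 1), with a trend in the moderated variance and 1 fit per kind of library over all groups. The fit kept genes whose mean over the 8 libraries of their kind was 5 RPKM or more, with two-sided p-values adjusted by Benjamini-Hochberg over all of them and a threshold of 0.05. A fold change on the log2(RPKM + 1) scale understates the change of low genes. Translation efficiency was tested as the interaction of kind of library and group in 1 fit over both kinds. The mRNA library labelled deletion 3 h replicate 2 was left out of the mRNA and efficiency fits, leaving the deletion at 3 h with 1 mRNA library, assumed to vary like the other groups. Replicate pairs differed by more than sampling noise in a chi-square test over genes, their mean statistic per gene being 3.848 or more (about 1 is what sampling alone gives), and none was counted as the same library.

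Values in every library are given for NDI1, the COX5 and CYC pairs, and the genes with the highest and lowest footprint change in WT in each complex. In each comparison between strains, the 3 genes of smallest p are named, and of each other list up to 3 of smallest p. Genes of highest and lowest efficiency in WT are named too. The members, the lists and this rule were chosen with earlier results of these data known. Alternatives were a pseudocount of 5, no filter, limma without the trend, rescaling by the median ratio, limma-voom, a replicate block, efficiency per sample number, the left-out library included, and leaving out each replicate in turn. The scripts were tested on simulated data. RefSeq R64 locus tags matched 5994 of 6679 IDs and served only for gene names and neighbours. Python 3.11.15 with matplotlib 3.10.9 drew the figures.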

Additional observations from a re-analysis of the deposited data

Results flagged for a closer look

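The mRNA difference between the deletion and WT ran in opposite directions at the 2 times for ATP17 and ATP20, which encode membrane subunits of the ATP synthase. At 6 h ATP17 mRNA was 378 and 359 RPKM in the deletion, below 435 and 423 RPKM in WT, and at 3 h it was 2168 RPKM in the single usable deletion library, above 1729.6 and 2063 RPKM in WT. The difference of the differences was -0.42 on the log2 scale. ATP20 mRNA was 207 and 171 RPKM in the deletion at 6 h, against 222 and 222 RPKM in WT, and 1565 RPKM in the deletion at 3 h, against 1464 and 1514 RPKM in WT, with a difference of the differences of -0.31. These differences were not tested, and the deletion at 3 h rested on 1 mRNA library. With that library, mRNA of the strains did not overlap at 3 h for 11 of the 37 genes and for 72.4% of all genes tested. At 6 h it did not overlap for 7 of the 37 and for 23.2% of all genes tested.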

How the results depend on the processing

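The footprint counts in the deletion and in WT and the mRNA count in WT stayed within 1.5 times their main value under every alternative run. The number of the 37 genes called over time ranged from 33 to 36 in deletion footprints and from 30 to 35 in WT footprints when each replicate was left out. It was 36 in mRNA of both strains. With the mRNA library labelled deletion 3 h replicate 2 included, 0 of the 37 were called in deletion mRNA, 0 in WT efficiency, and the WT mRNA calls of QCR9, CYC1 and COX5A were lost (limma, adjusted p = 0.149, 0.0548 and 0.0578). The efficiency count in WT, 3 in the fit reported, was 1 after rescaling (0 higher and 1 lower), 7 with the replicate block, and 0 to 7 with a replicate left out. In WT, rescaling gave opposite signs for NDI1 (0.14) and COX9 (0.15) in footprints and for the mRNA of NDI1 (0.051), QCR9 (0.47), CYC1 (0.15), CYC7 (1.31), COX5A (0.0087) and COX9 (0.51). It also ended the footprint calls of SDH2, QCR9, CYC1, COX5A, ATP7 and ATP14 and the mRNA calls of SDH2, COR1, COX7, ATP7 and ATP14. CYC7 mRNA ranged from -0.24 to 0.10 with a replicate left out, the positive value being without WT replicate 4. The cause of these shifts was not tested. Between strains 0 of the 37 were called under every alternative run. Deletion replicate 4 could not be left out of comparisons that use deletion mRNA at 3 h.

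Over all genes tested, same-numbered libraries deviated together only weakly, with correlations of 0.24 and -0.04 (deletion and WT footprints) and 0.05 (WT mRNA). Among the 37 genes, WT footprints were higher in replicate 3 than in replicate 4 for 36 at 3 h and 34 at 6 h. Deletion footprints were higher in replicate 2 than in replicate 4 for 24 at 3 h and 14 at 6 h. For the 12 ATP synthase genes those deletion counts were 1 and 0. Whether same-numbered libraries share a culture was not tested. The replicate block gave 35 called genes in footprints of each strain and 36 in mRNA of each strain, and beyond the efficiency count it moved no count. No paired analysis was possible between strains because they share only number 4. COX5B footprints rest on 30 to 113 reads per library, which limits the precision of its efficiency.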
